A study of Homo sapiens with 15 samples.

Results

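Progesterone (PROG) was compared with vehicle after 6 h in the ZR-75-1 line, which derives from a human breast cancer and carries the estrogen receptor. The comparison used the 3 arrays titled PROG (10 nM PROG) and the 3 titled vehicle (0.1% ethanol, a group whose labels also read untreated), 6 of the 15 arrays of the study. The remaining arrays, 3 each, came from cells given 10 nM MPA (medroxyprogesterone acetate), 10 nM DHT (dihydrotestosterone, an androgen) or 10 nM DEX (dexamethasone, a glucocorticoid) for 6 h. All the groups were grown in RPMI-1640 with 10% FBS, a serum that was not described as stripped of steroids. All of them are of 1 cell line, and 300 ng of total RNA per array was amplified and labelled with biotin. The solvent of the compounds and the number of separate cultures are not stated in the labels, so the p-values reflect only array-to-array spread, part or all of which may be technical.

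Progesterone enters cells and binds the progesterone receptor, a transcription factor of the nuclear receptor family. The bound receptor attaches to DNA elements that other steroid receptors also recognise, and it is itself a product of estrogen receptor activity in breast epithelium. In the breast, progesterone is known for driving side branching and alveolar growth, partly through growth factors that receptor-positive cells release to their neighbours.

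Values are the deposited log2 levels. Differences are PROG minus vehicle in log2 units ± the standard error of a limma fit over all 15 arrays, with n = 3 in each group. Probe sets with a limma adjusted p under 0.05 are termed called. "Rose" and "fell" are used of called genes only. A group mean under 3.70, the mean of the array medians, is termed dim. The array medians lay between 3.69 and 3.73, and the number of arrays limits the precision of every value. All 12 measured luminal epithelial markers, among them GATA3, FOXA1, KRT8, KRT18 and EPCAM, were above the dim limit in both groups. Dim in both groups were 3 of 5 measured basal, 2 of 3 fibroblast and 4 of 7 blood or endothelial markers. Of all protein-coding probe sets 29.4% were dim in both groups. The lists held 12 basal, 11 fibroblast and 17 blood or endothelial markers, so most of these were not measured. The summed level of the 7 blood or endothelial markers spanned 29.40 to 29.89 on the PROG arrays and 29.51 to 29.54 on the vehicle arrays.

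The response was mostly a rise. Of 14841 named probe sets 361 were higher with PROG (2.43%) and 58 lower (0.391%), and all 28 called changes of at least 2-fold (0.189%) were rises. The median called rise was 0.39 and the median called fall -0.30. With each of the 6 arrays left out in turn, 208 of the rises and 20 of the falls were called every time. Leaving out PROG 2 lowered the number of rises to 227 and of falls to 30, and falls numbered 35 without PROG 1 and 38 without vehicle 3. The plot of difference against level shows the imbalance.

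**Figure D1:**
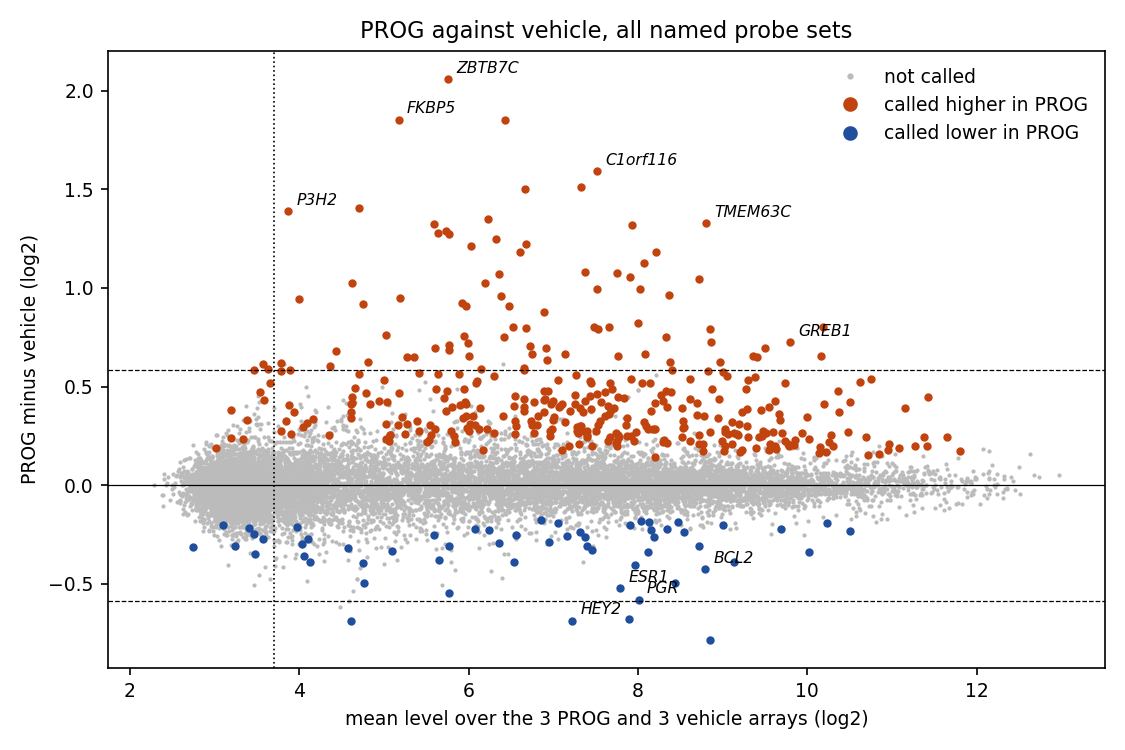
Difference between PROG and vehicle (log2, vertical axis) against the mean level over the 6 arrays (log2, horizontal axis) for all named probe sets. Called rises (361) and called falls (58) are coloured, dashed lines mark 1.5-fold and the dotted line marks the dim limit of 3.70; called rises reach about 2 log2 units, and no called fall reaches 1.

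The 15 largest rises include regulators of steroid action, transcription factors, membrane proteins and enzymes. ZBTB7C, a zinc finger transcription factor of the BTB family, read 6.64, 7.10 and 6.62 on the PROG arrays and 4.68, 4.62 and 4.88 on the vehicle arrays. The lowest PROG array stood well above the highest vehicle array. Separation of all arrays was a condition for naming the 15 rises and the 15 falls, so it is no result about them, and 15.5% of all probe sets had it in either direction. The difference was 2.06 ± 0.12, or 4.17-fold (limma adjusted p = 1.28e-07). FKBP5, a co-chaperone that lowers hormone binding by steroid receptors, read 6.09, 6.09 and 6.12 with PROG and 4.48, 4.43 and 3.83 with vehicle. The groups did not overlap, and vehicle 3 lay lower than the other vehicle arrays. The rise of FKBP5 was 1.85 ± 0.13 (limma adjusted p = 8.50e-07). EMP1, an epithelial membrane protein, read 7.31, 7.28 and 7.49 with PROG and 5.47, 5.66 and 5.40 with vehicle, a rise of 1.85 ± 0.089.

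ANKRD22, an ankyrin repeat protein, read 8.08, 8.15 and 8.01 with PROG against 6.71, 6.51 and 6.49 with vehicle. Its groups were well separated, and the rise was 1.51 ± 0.060 (limma adjusted p = 3.42e-09). PER1, a repressor of the circadian clock, read 7.30, 7.56 and 7.38 against 5.69, 6.00 and 6.04, where vehicle 1 was the lowest array. ACOT6, of the acyl-CoA thioesterase family, read 5.51, 5.26 and 5.47 with PROG against 3.70, 4.14 and 4.18 with vehicle. The ACOT genes are close in sequence, and cross-hybridisation between them was not tested. Its relatives ACOT1 (-0.07 ± 0.16), ACOT2 (0.33 ± 0.11) and ACOT4 (0.08 ± 0.064) were not called. P3H2, a collagen prolyl 3-hydroxylase, read 4.46, 4.73 and 4.50 with PROG and 3.11, 3.08 and 3.33 with vehicle. Because its vehicle mean was dim, the rise is given as at least 1.82-fold (limma adjusted p = 1.88e-05).

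Among the remaining rises, TMEM63C, of a family of mechanically gated ion channels, read 9.40, 9.57 and 9.42 with PROG against 8.07, 8.16 and 8.17 with vehicle (1.33 ± 0.050). CSRNP1, a nuclear protein whose gene is known to respond to AXIN1, read 6.17, 6.26 and 6.32 against 4.86, 4.94 and 4.98 (1.32 ± 0.063). SYBU, which links syntaxin-bearing vesicles to the transport motor kinesin, read 6.36, 6.42 and 6.36 against 4.99, 5.06 and 5.22 (1.29 ± 0.069). All 3 genes had PROG arrays above every vehicle array. SGPP2, a phosphatase that acts on sphingosine-1-phosphate, read 6.34, 6.56 and 6.32 against 5.10, 5.06 and 5.24 (1.27 ± 0.11). C1orf116 (1.59 ± 0.056), CLDN8 (1.35 ± 0.085), HSD11B2 (1.32 ± 0.065) and NDRG1 (1.28 ± 0.17) complete the 15. All 15 rises were called in every fit that left out 1 array.

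**Figure D2:**
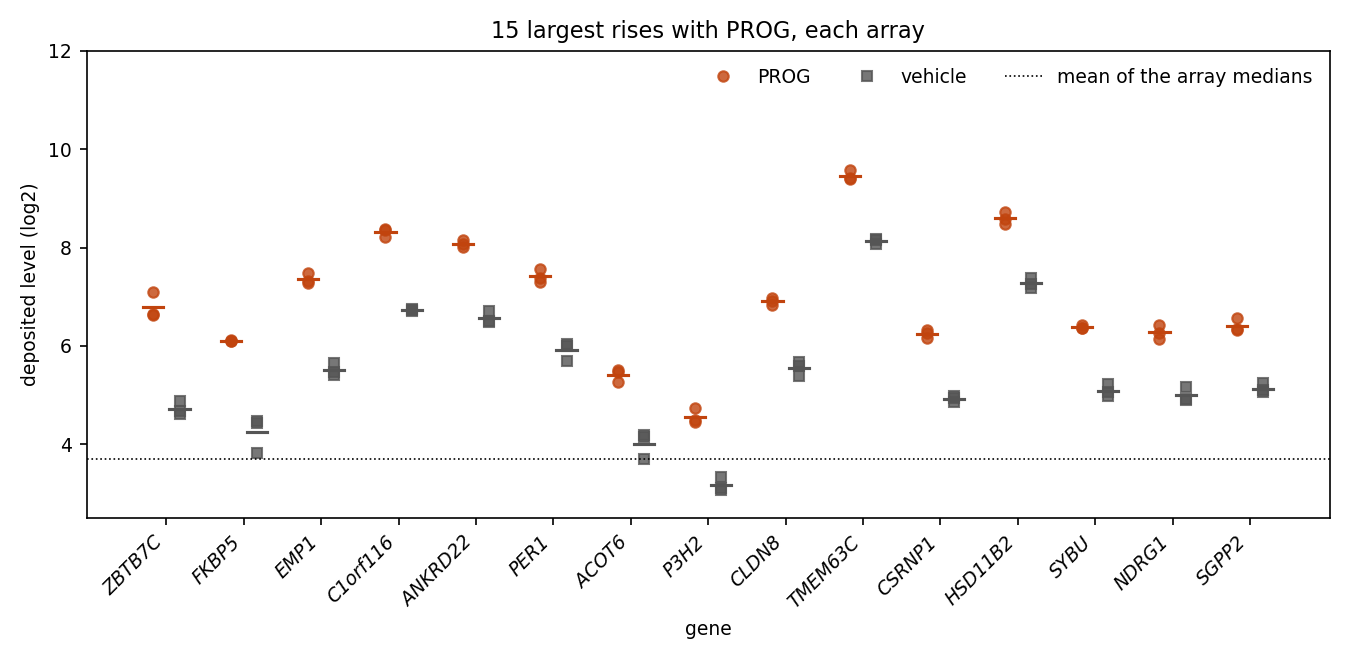
Deposited log2 level (vertical axis) of the 15 genes with the largest called rises, in order of size, on each of the 3 PROG arrays (circles) and the 3 vehicle arrays (squares); bars are group means and the dotted line is the dim limit of 3.70. The groups do not overlap for any of the 15, as their choice required, and the P3H2 vehicle arrays lie under the dotted line.

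The falls were smaller. HEY2, a transcriptional repressor that Notch signalling induces, read 7.02, 6.64 and 6.97 with PROG and 7.54, 7.64 and 7.51 with vehicle. Every PROG array was below every vehicle array, and the level fell by 0.69 ± 0.089 on the log2 scale (limma adjusted p = 0.000287). AMIGO2, a cell adhesion protein, read 7.57, 7.60 and 7.48 with PROG and 8.24, 8.31 and 8.13 with vehicle, also without overlap. NRCAM, another adhesion protein of the immunoglobulin family, read 4.56, 4.45 and 4.55 with PROG and 4.96, 4.99 and 5.09 with vehicle (-0.49 ± 0.075, limma adjusted p = 0.00128). SYT1, a calcium sensor of vesicle release, read 4.56, 4.49 and 4.62 against 4.92, 4.90 and 5.03.

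BAMBI, a decoy receptor that dampens TGF-beta signalling, read 8.93, 8.96 and 8.92 with PROG and 9.30, 9.37 and 9.30 with vehicle. The PROG arrays agreed closely and lay under all the vehicle arrays, and BAMBI fell by 0.39 ± 0.053 (limma adjusted p = 0.000508). TRERF1, a zinc finger regulator of a steroid synthesis gene, read 6.35, 6.26 and 6.42 against 6.78, 6.64 and 6.77. NVL, an ATPase that acts in ribosome assembly, read 9.87, 9.78 and 9.89 against 10.19, 10.14 and 10.22. FAM241A differed by -0.34 ± 0.061. HOXC8, a homeobox gene (-0.38 ± 0.082), and GSTA5, a glutathione transferase with close relatives (-0.39 ± 0.094), were each called in only 1 of the 6 fits without an array. Both lost the call without vehicle 1, vehicle 2, vehicle 3 or PROG 2, HOXC8 also without PROG 3 and GSTA5 also without PROG 1.

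Among all probe sets the fall with the most negative value was that of SCARNA7, a small nuclear RNA gene (-0.78 ± 0.18, limma adjusted p = 0.0325), which was outside the choice of genes because small RNAs were passed over. A probe set of RASA4 followed (-0.69 ± 0.17, limma adjusted p = 0.0477), but the other RASA4 probe sets were not called, and the gene has near-identical copies. With HEY2 and AMIGO2 these make up the 4 called falls of at least 1.5-fold, among 85 called changes of that size in either direction (0.573%). SCARNA7 and RASA4 were named after their values were seen.

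**Figure D3:**
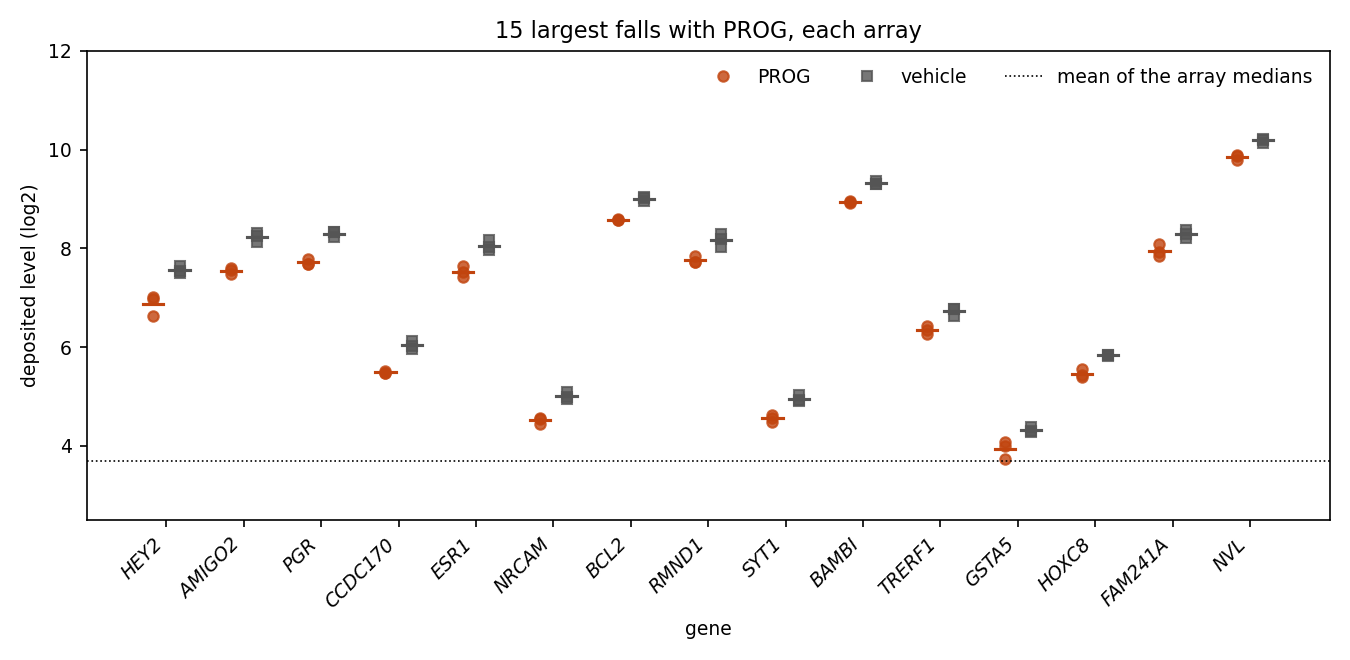
Deposited log2 level (vertical axis) of the 15 genes with the largest called falls by the rule for named genes, in order of size, on each of the 3 PROG arrays (circles) and the 3 vehicle arrays (squares), with group means as bars and the dim limit of 3.70 as a dotted line. The groups do not overlap for any of the 15, as their choice required, and the gaps are narrower than for the rises.

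The receptors and their partners moved in both directions. All gene lists were written with earlier results of these data known, so their counts are not independent of them. In the list of steroid receptors and co-regulators, 2 of 18 measured genes rose, against 2.51% of all genes, and 2 fell, against 0.397%. PGR, which encodes the progesterone receptor itself, read 7.78, 7.69 and 7.68 with PROG and 8.34, 8.33 and 8.22 with vehicle. ESR1, for estrogen receptor alpha, read 7.64, 7.53 and 7.41 with PROG and 7.97, 8.16 and 8.02 with vehicle. Both genes were lower on every PROG array, by -0.58 ± 0.056 for PGR and -0.52 ± 0.065 for ESR1, and both were called in all 6 fits. GREB1, an estrogen receptor cofactor, read 10.16, 10.14 and 10.18 with PROG and 9.37, 9.45 and 9.48 with vehicle (0.73 ± 0.047, limma adjusted p = 3.04e-07). The pioneer factors FOXA1 (-0.18 ± 0.047, limma adjusted p = 0.0533) and GATA3 (-0.07 ± 0.043) were not called. ESR1 is also the only luminal marker called lower, and KRT19 and AGR2 were called higher (0.21 ± 0.045 and 0.19 ± 0.045), each called in 2 of the 6 fits that left out an array. The basal marker SNAI2 was also called higher (0.41 ± 0.10, limma adjusted p = 0.0426), in only 1 of the 6 fits. The summed level of the 12 luminal markers was 117.7 to 118.3 on the PROG arrays and 117.5 to 118.0 on the vehicle arrays. TSC22D3, TNFSF11, WNT4 and AREG were not analysed here because no probe set is named for them.

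Genes known as progestin-induced, a list written with earlier results of these data known and so not independent of them, rose in 15 of 28 measured cases, against 2.51% of all genes, and 0 fell, against 0.397%. The median of the list was 0.38, where the median of all genes was 0. KLF9, a zinc finger factor that restrains growth, read 6.94, 7.02 and 6.88 with PROG against 5.74, 5.65 and 5.70 with vehicle (1.25 ± 0.092). THBS1, a matrix protein, read 9.21, 9.25 and 9.27 against 8.21, 8.12 and 8.26 (1.05 ± 0.053). Both were separate on all arrays. STAT5A, the transcription factor downstream of prolactin, read 4.74, 5.21 and 5.45 with PROG and 4.05, 4.31 and 3.97 with vehicle. Its PROG arrays were far apart, and PROG 1 was the lowest of them, so the difference of 1.02 carries a standard error of 0.18 (limma adjusted p = 0.00500). SGK1, a kinase that steroids induce in many tissues, was dim in both groups (0.38 ± 0.064), and no fold is read for it. ZBTB16, a zinc finger repressor and a widely used progestin response gene, was dim in both groups and not called. CCND1, which drives entry into the cell cycle, differed by 0.20 ± 0.054 without a call (limma adjusted p = 0.0838), and MYC, a growth-promoting transcription factor, by 0.09 ± 0.049.

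Transcription factor families were examined next. Of 44 measured BTB zinc finger repressors 4 rose, against 2.51% of all genes, and 0 fell. After ZBTB7C came BCL6, a repressor of cytokine response genes, which read 8.69, 8.78 and 8.64 with PROG against 7.92, 7.96 and 7.98 with vehicle (0.75 ± 0.053). ZBTB10 rose by 0.48 ± 0.070, and ZBTB7B, a lineage factor of T cells that also acts in the mammary gland, by 0.42 ± 0.082, a call that ended without vehicle 1 or PROG 2. The median of the family was 0.01, so most members lay near 0. Of 23 Kruppel-like factors 5 rose. SP6, an epithelial factor, read 6.91, 7.03 and 6.85 with PROG against 6.24, 5.80 and 6.02 with vehicle (0.91 ± 0.10). The growth and differentiation factors KLF6 (0.42 ± 0.053), KLF4 (0.37 ± 0.064) and KLF5 (0.30 ± 0.058) rose by less, and all 5 members were called in every fit.

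Members of the AP-1 complex, which binds DNA as pairs of JUN and FOS proteins, rose in part. FOSL2 read 8.10, 8.11 and 8.07 with PROG and 7.40, 7.44 and 7.47 with vehicle. JUN read 7.04, 7.15 and 7.04 with PROG and 6.47, 6.31 and 6.45 with vehicle, and JUNB rose by 0.47 ± 0.048. EGR1, an early response factor, was called at 0.23 ± 0.054 but in only 1 of the 6 fits: the call remained only without PROG 1. With it, 4 of 16 early response genes rose, against 2.51% of all genes, and 0 fell, while FOS (0.13) and JUND (0.20) were not called. In the clock list 2 of 14 genes rose, with a median of -0.002. Beside PER1 this was CRY2, another clock repressor, which read 6.20, 6.29 and 6.20 with PROG against 5.85, 5.87 and 5.91 with vehicle (0.35 ± 0.041). PER2 (0.25) and BMAL1 (-0.05) were not called.

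Some growth factor ligands and receptors rose. Of 24 paracrine factors 3 rose, against 2.51% of all genes, and 1 fell, against 0.397%. EPGN, a ligand of the EGF receptor, read 6.38, 6.28 and 6.42 with PROG against 5.90, 5.35 and 5.66 with vehicle (0.72 ± 0.11, limma adjusted p = 0.00110). EGF itself read 7.56, 7.45 and 7.53 against 7.09, 7.08 and 7.19 (0.39 ± 0.050). STC1, a secreted glycoprotein, rose by 0.25 ± 0.048, a call lost without PROG 2. BMP4, a bone morphogenetic protein, fell by 0.32 ± 0.054 and read 4.45, 4.43 and 4.35 with PROG against 4.76, 4.70 and 4.73 with vehicle. The median of the paracrine list was 0, and 2 members were called lower without vehicle 1.

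Of 25 growth factor receptors and adaptors 5 rose (2.51% of all genes) and 0 fell (0.397%), the 5 were called in every fit, and the median of the list was 0.05. EGFR, the EGF receptor, read 7.60, 7.48 and 7.56 with PROG against 7.03, 7.05 and 6.89 with vehicle (0.56 ± 0.049). ERRFI1, which inhibits that receptor, read 9.86, 9.85 and 9.84 against 9.20, 9.21 and 9.05 (0.70 ± 0.054). The ligands EPGN and EGF, their receptor and its inhibitor were higher with PROG. Other ligands of that receptor in the paracrine list were not called: HBEGF (0.30 ± 0.096), EREG, dim in both groups (0.11 ± 0.14), and BTC (-0.23 ± 0.14). IRS2, an adaptor of insulin signalling, read 6.84, 7.0 and 6.93 against 6.16, 6.12 and 6.08 (0.80 ± 0.071). GRB7, an adaptor of ERBB2, rose by 0.56 ± 0.055 and IL6R, the interleukin-6 receptor, by 0.40 ± 0.062. ERBB3, IGF1R and FGFR2 differed by -0.08, 0.02 and -0.16 without a call.

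Downstream of these receptors, 2 of 15 MAP kinase feedback genes rose, against 2.51% of all genes. SPRY4, an inhibitor of that cascade, read 7.16, 7.35 and 7.09 with PROG against 6.20, 6.01 and 5.84 with vehicle (1.18 ± 0.091), and the other was ERRFI1. Without vehicle 3, 4 of the 15 were called. The dual specificity phosphatases DUSP1, DUSP4 and DUSP6 differed by 0.23, 0.21 and 0.20 without a call, and the median of the list was 0.15. JAK2, a kinase of cytokine receptors, read 7.86, 7.97 and 7.81 with PROG against 7.10, 7.07 and 7.06 with vehicle (0.80 ± 0.097, limma adjusted p = 0.000147). With STAT5A it makes 2 rises among 16 JAK-STAT genes. CISH, an inhibitor of STAT5 signalling, was lower by -0.19 ± 0.043, a call that remained only without PROG 3. In the PI3K and FOXO list 3 of 16 rose: DDIT4, a stress-induced inhibitor of mTOR (0.53 ± 0.054), the dim SGK1, and INPP5J, a phosphoinositide phosphatase (0.47 ± 0.095), which lost its call without vehicle 2, PROG 2 or PROG 3.

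Wnt and Notch genes changed singly. LEF1, a transcription factor of the Wnt pathway, read 6.72, 6.65 and 6.74 with PROG against 5.68, 5.55 and 5.80 with vehicle (1.03 ± 0.074, limma adjusted p = 8.50e-07). The Wnt receptors FZD1 (0.39 ± 0.061), FZD5 (0.42 ± 0.081) and FZD8 (0.37 ± 0.090) were also called, which gives 4 rises, against 2.51% of all genes, and 0 falls, against 0.397%, among 27 Wnt genes with a median of -0.04. FZD5 lost its call without PROG 1, FZD8 kept its own only without vehicle 1, and without PROG 1 the count was 2. AXIN2, a target that reports Wnt activity, was at -0.03 and not called. In the Notch list of 29 genes the receptor NOTCH2 averaged 11.02 ± 0.040 with PROG and 10.49 ± 0.068 with vehicle (SD, n = 3 each), and its difference was 0.54 ± 0.046. DTX1, a ubiquitin ligase of the pathway, rose by 0.32 ± 0.078, a call lost without vehicle 3, PROG 1 or PROG 2. HEY2 fell, and HEY1 was at 0.05 without a call.

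**Figure D4:**
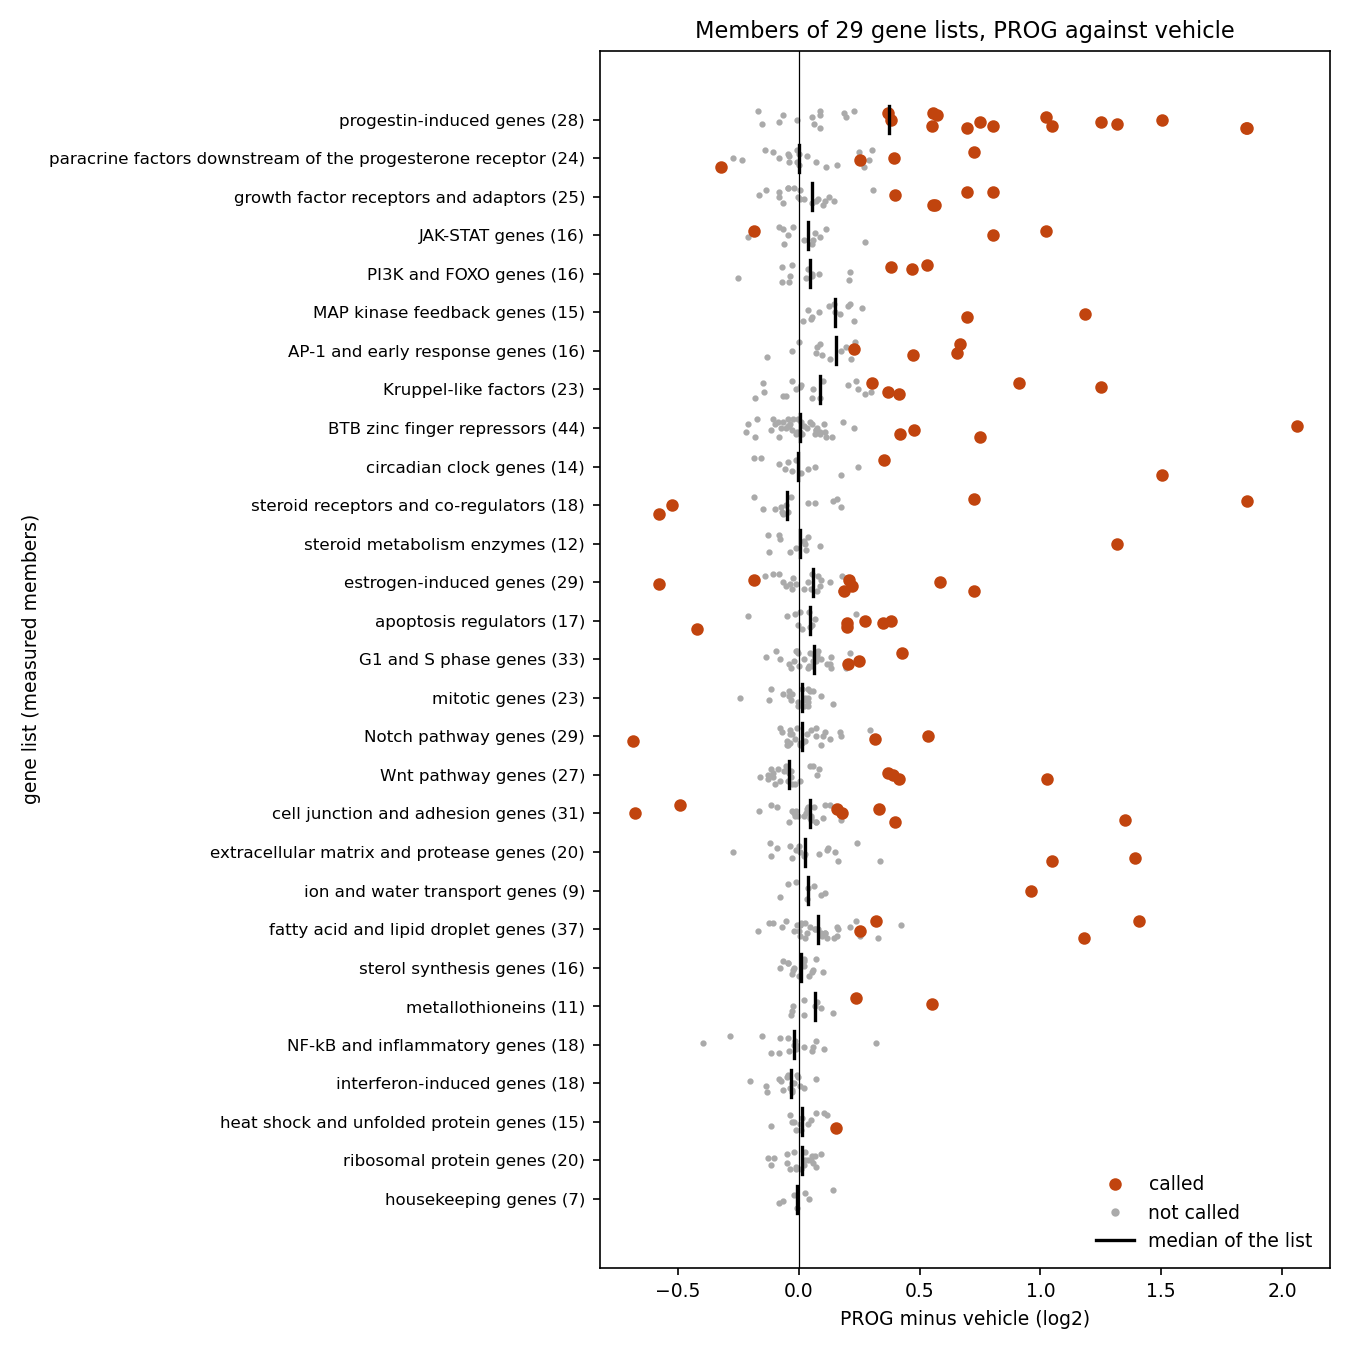
Difference between PROG and vehicle (log2, horizontal axis) of every measured member of 29 gene lists (vertical axis, number of measured members in brackets). Large dots are called members, small dots are members without a call and black bars are list medians. The progestin-induced list has a median of 0.38 and 15 called members. The sterol synthesis, interferon-induced, NF-kB and inflammatory, ribosomal, housekeeping and mitotic lists have no called member. Of all genes only 2.51% rose and 0.397% fell, so lists of this size can lack a call at that share.

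Lipid and steroid enzymes gave a few large changes. Of 37 fatty acid and lipid droplet genes 4 rose, against 2.51% of all genes, and 0 fell, against 0.397%. ACSL1, which activates long-chain fatty acids, read 8.84, 8.86 and 8.72 with PROG against 7.63, 7.68 and 7.57 with vehicle (1.18 ± 0.050). ELOVL5, an elongase of unsaturated fatty acids, rose by 0.32 ± 0.050, and ACOT7, another thioesterase, by 0.25 ± 0.063 in 2 of 6 fits, those without vehicle 3 or PROG 1. FASN (0.11) and SCD (0.16), enzymes of fatty acid synthesis, were not called. None of 16 sterol synthesis genes was called by limma, and 0 had an unadjusted p under 0.05, where 1727 of all 14841 named probe sets had one. HSD11B2, which inactivates cortisol, read 8.58, 8.72 and 8.47 with PROG against 7.26, 7.38 and 7.18 with vehicle and was the only called gene of 12 steroid metabolism enzymes.

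Surface, junction and transport genes followed. CLDN8, a tight junction claudin, read 6.91, 6.97 and 6.83 with PROG against 5.60, 5.68 and 5.38 with vehicle. MARVELD3, another tight junction protein, read 7.23, 7.31 and 7.31 against 6.95, 6.89 and 6.81 (0.40 ± 0.065). In the list of 31 junction and adhesion genes 5 rose, against 2.51% of all genes, and 2 fell, against 0.397%. The falls were AMIGO2 and NRCAM. The list was written with earlier results of these data known, so its share of calls is a description only. The smaller rises of CLDN7, DSP and the dim PKP1 were each lost without any 1 of the 6 arrays, which leaves CLDN8 and MARVELD3. AQP3, a channel for water and glycerol, read 6.83, 6.90 and 6.87 with PROG against 6.04, 5.67 and 6.01 with vehicle (0.96 ± 0.11) and was the only call among 9 ion and water transport genes. Of 20 matrix and protease genes, P3H2 and THBS1 rose. MT2A, a metal-binding metallothionein, read 9.70, 9.65 and 9.61 against 9.04, 9.10 and 9.17 (0.55 ± 0.046). MT1F was called at 0.24 ± 0.056 but lost the call without any 1 array, and the close similarity of metallothionein genes leaves their separation by probe sets uncertain.

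Several survival genes and a few cell cycle genes changed by 6 h. BCL2, an inhibitor of apoptosis, read 8.58, 8.58 and 8.59 with PROG against 9.02, 9.04 and 8.96 with vehicle (-0.42 ± 0.040, limma adjusted p = 1.10e-05). BCL2L1, whose main product is another inhibitor, read 9.70, 9.64 and 9.60 against 9.30, 9.28 and 9.22 (0.38 ± 0.043). These 2 relatives moved in opposite directions on every array. Of 17 apoptosis regulators 5 rose, against 2.51% of all genes, and 1 fell, against 0.397%, but BCL2L1 was the only rise called in every fit, and the number of rises was 1 without vehicle 2 or PROG 2 and 3 without vehicle 3, PROG 1 or PROG 3. CCNE2, a cyclin of the G1 to S transition, read 9.81, 9.85 and 9.85 with PROG against 9.42, 9.37 and 9.44 with vehicle (0.43 ± 0.055). With E2F1 (0.25 ± 0.061) and GINS2 (0.20 ± 0.043) it gave 3 rises and 0 falls among 33 G1 and S phase genes, and without vehicle 1, PROG 1 or PROG 2 the count was 1. None of 23 mitotic genes was called, and 1 had an unadjusted p under 0.05 in the higher and 2 in the lower direction. Of all 14841 named probe sets 1077 had one in the higher and 650 in the lower direction.

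Estrogen-induced genes did not move as a block. Of 29 measured, 5 rose (GREB1, AGR3, SIAH2, KRT19 and AGR2) and 2 fell (PGR and CISH), with a median of 0.06, where 2.51% of all genes rose and 0.397% fell. AGR3, a secretory pathway protein of luminal cells, read 8.81, 8.74 and 8.53 with PROG against 8.19, 8.14 and 8.0 with vehicle (0.58 ± 0.099). TFF1, a secreted peptide used as an estrogen response marker, read 11.16, 11.18 and 11.13 against 11.10, 11.12 and 11.14, so its groups overlapped. GREB1 and AGR3 were the rises called in every fit, and the number of rises was 2 without vehicle 1, vehicle 2 or PROG 2 and 3 without PROG 1 or PROG 3. The number of falls was 1 without any array but PROG 3.

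Some pathways gave no call with limma. Among 18 NF-kB and inflammatory genes, 1 had an unadjusted p under 0.05 in the higher and 3 in the lower direction. For 18 interferon-induced genes these counts were 0 and 1, for 20 ribosomal protein genes 0 and 1, and for 7 housekeeping genes 1 and 0. Over all 14841 named probe sets the counts were 1077 and 650. One of 15 heat shock and unfolded protein genes, ATF6 (0.15 ± 0.035), was called, and not in any fit that left out an array. A missed threshold does not show that the levels were the same.

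The promoters of the rising genes were searched for the element that the progesterone and glucocorticoid receptors share. It was written as a GNACA part, any 3 bases and a TGTNC part, on either strand, in the window of 250 bases before to 50 after the start of each gene. It was found in 1 of 293 rising genes with a window (0.341%), 0 of 46 falling genes and 22 of all 10661 tested genes with a window (0.206%). The single site TGTTCT, or AGAACA on the other strand, was in 8.53% of the rising, 4.35% of the falling and 10.5% of all windows. These matches are descriptions of letters near the start and say nothing of elements further away. Of the 71 named rises 54 had a window, and 8 of those windows held the single site. The 4 windows below are a part of those 8, of genes that rose by more than 1 log2 unit, and do not rank them by difference. They are RefSeq sequence of GRCh38.p14, written in the direction of the gene, with the single site in capitals.
FKBP5: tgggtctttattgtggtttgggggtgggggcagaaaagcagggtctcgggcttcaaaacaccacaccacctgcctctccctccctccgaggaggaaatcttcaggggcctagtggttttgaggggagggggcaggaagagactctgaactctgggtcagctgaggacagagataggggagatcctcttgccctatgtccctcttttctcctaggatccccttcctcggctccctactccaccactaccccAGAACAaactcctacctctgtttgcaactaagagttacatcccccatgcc
CSRNP1: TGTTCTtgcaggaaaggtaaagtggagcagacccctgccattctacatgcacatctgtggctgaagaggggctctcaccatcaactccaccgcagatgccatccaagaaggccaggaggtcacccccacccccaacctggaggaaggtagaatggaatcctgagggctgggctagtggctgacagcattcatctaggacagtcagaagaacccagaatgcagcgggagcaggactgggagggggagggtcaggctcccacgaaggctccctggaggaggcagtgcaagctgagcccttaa
SGPP2: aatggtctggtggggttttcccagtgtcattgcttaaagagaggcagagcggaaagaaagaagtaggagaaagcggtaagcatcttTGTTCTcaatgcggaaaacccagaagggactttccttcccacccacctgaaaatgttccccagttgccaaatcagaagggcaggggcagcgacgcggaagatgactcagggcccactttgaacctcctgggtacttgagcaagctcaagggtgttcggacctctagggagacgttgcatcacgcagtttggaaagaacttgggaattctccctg
LEF1: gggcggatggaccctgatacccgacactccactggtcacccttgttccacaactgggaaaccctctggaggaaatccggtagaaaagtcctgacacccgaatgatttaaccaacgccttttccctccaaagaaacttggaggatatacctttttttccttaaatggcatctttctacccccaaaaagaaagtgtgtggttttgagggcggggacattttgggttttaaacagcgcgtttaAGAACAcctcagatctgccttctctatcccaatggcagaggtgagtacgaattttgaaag

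The FKBP5 window is chr6:35728534-35728833 on the minus strand, and its site begins at the first transcribed base. The CSRNP1 window is chr3:39154592-39154891 on the minus strand, with the site at its far end, position -250 from the start. The SGPP2 window, chr2:222423738-222424037 on the plus strand, has it at position -164, and the LEF1 window, chr4:108166252-108166551 on the minus strand, at position -10.

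The arrays also hold probe sets for microRNA genes, and 3 of them were named after their values were seen. MIR21, the gene of a microRNA that is abundant in breast tumours, read 8.59, 8.70 and 8.60 with PROG against 7.57, 7.49 and 7.45 with vehicle. MIR29C, whose products target collagen messages, read 8.69, 8.40 and 8.46 against 7.68, 7.42 and 7.46. Both were higher on every PROG array, by 1.13 ± 0.084 (limma adjusted p = 1.11e-06) and 1.00 ± 0.10 (limma adjusted p = 3.35e-05). MIR181B1 read 8.26, 8.04 and 8.26 with PROG against 8.72, 8.51 and 8.82 with vehicle and fell by 0.50 ± 0.081 (limma adjusted p = 0.00228). All 3 calls were made in every fit without an array. VMP1, the gene that overlaps MIR21, was not called (0.17 ± 0.050, limma adjusted p = 0.105), nor was MIR181A1HG, the host transcript of MIR181B1 (-0.39 ± 0.10, limma adjusted p = 0.0602). Whether these probe sets read the long primary transcript, the hairpin or the mature form was not tested. Mature products of these genes that matched in the RefSeq table, 1 for MIR21 and 2 for each of the others, are printed with the seed, bases 2 to 8, in capitals, and no 2 of those printed share a seed.
miR-21-5p: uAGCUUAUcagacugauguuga
miR-29c-3p: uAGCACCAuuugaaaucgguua
miR-29c-5p: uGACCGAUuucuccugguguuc
miR-181b-5p: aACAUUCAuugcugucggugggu
miR-181b-3p: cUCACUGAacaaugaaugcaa

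PROG was then set against the other compounds at the same dose and time, in 3 direct contrasts. MPA is progesterone with a methyl and an acetoxy group added to the ring system. It was the compound with the fewest calls against PROG. In that contrast 8 probe sets were higher with PROG (0.0539%) and 35 lower (0.236%), and 14 of the 43 calls (0.29%) were made in every fit without an array. RANBP3L, of a RAN-binding protein family, read 4.58, 4.59 and 4.25 with PROG against 5.88, 6.05 and 5.74 with MPA (-1.42 ± 0.097, limma adjusted p = 1.25e-05). It nevertheless rose with PROG against a dim vehicle mean, by at least 1.71-fold. ATP13A4, a cation-transporting ATPase, read 5.31, 5.45 and 5.14 with PROG against 6.14, 6.33 and 6.23 with MPA (-0.93 ± 0.091). UNC5B, a netrin receptor, read 7.18, 7.57 and 7.25 with PROG against 8.20, 8.16 and 8.12 with MPA (-0.83 ± 0.080). C1orf116 read 8.36, 8.37 and 8.22 with PROG against 9.02, 9.02 and 9.17 with MPA (-0.75 ± 0.056). All 4 genes were called in every fit and had no overlap between the groups, a condition of their choice that 11.7% of all probe sets met.

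Of the genes that fell with PROG against vehicle, AMIGO2, BMP4, BCL2, NVL and CEACAM5 were higher with PROG than with MPA, contrasts that share the PROG arrays. AMIGO2 read 7.57, 7.60 and 7.48 with PROG against 6.76, 7.25 and 6.98 with MPA (0.55 ± 0.10, limma adjusted p = 0.0383), a call that remained only without MPA 2. BMP4 read 4.45, 4.43 and 4.35 against 4.08, 3.91 and 4.10 (0.38 ± 0.054), and BCL2 8.58, 8.58 and 8.59 against 8.32, 8.35 and 8.31 (0.26 ± 0.040). BMP4 lost its call without PROG 1, and BCL2 without PROG 1, PROG 3 or MPA 3. The number of probe sets higher with PROG was 1 without PROG 1, 4 without PROG 3, 5 without MPA 1 and 3 without MPA 3. The number lower was 16 without PROG 1, 15 without PROG 3 and 19 without MPA 3. Several of the large rises, and the fall of PGR, were not called between the 2 progestins. The 95% interval of PROG minus MPA was -0.25 to 0.13 for EMP1, -0.23 to 0.29 for ACOT6, -0.20 to 0.06 for ANKRD22 and -0.06 to 0.18 for PGR. For ZBTB7C it was -0.48 to 0.04 and for PER1 -0.60 to -0.16. The intervals are not adjusted for the number of tests, and that of PER1 lay wholly on the lower side, without a call.

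Against DHT, 202 probe sets were higher with PROG (1.36%) and 52 lower (0.35%), and 136 of the 254 calls (1.71%) were made in every fit. ZBTB7C read 6.64, 7.10 and 6.62 with PROG against 4.98, 5.08 and 5.12 with DHT (1.73 ± 0.12, limma adjusted p = 1.84e-06). ACOT6 read 5.51, 5.26 and 5.47 against 4.18, 3.97 and 4.10 (1.33 ± 0.12), and EMP1 7.31, 7.28 and 7.49 against 5.73, 5.84 and 6.04 (1.49 ± 0.089). HILPDA, a lipid droplet protein that hypoxia induces, read 8.05, 8.07 and 7.94 with PROG against 6.90, 6.99 and 6.98 with DHT (1.06 ± 0.058). These groups did not overlap, again a condition of the choice, which 12.8% of all probe sets met. The opposite held for C1orf116, which encodes a protein known as androgen-regulated and read 8.36, 8.37 and 8.22 with PROG against 10.20, 10.27 and 10.14 with DHT (-1.89 ± 0.056). HEY2 was lower with PROG than with DHT, at 7.02, 6.64 and 6.97 against 7.78, 7.90 and 7.86 (-0.97 ± 0.089). CLDN8 read 6.91, 6.97 and 6.83 against 7.63, 7.67 and 7.44 (-0.68 ± 0.085). OLR1, a scavenger receptor for oxidised lipoprotein, read 4.85, 5.12 and 5.09 against 5.99, 5.92 and 6.02 (-0.96 ± 0.078). The number of probe sets lower with PROG was 29 without PROG 1, 33 without PROG 3 and 31 without DHT 2, and the number higher was 131 without PROG 2 and 130 without DHT 1.

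Against DEX, 153 probe sets were higher with PROG (1.03%) and 58 lower (0.391%), and 116 of the 211 calls (1.42%) were made in every fit. ACOT6 read 5.51, 5.26 and 5.47 with PROG against 4.05, 3.79 and 3.87 with DEX (1.51 ± 0.12), and ZBTB7C 6.64, 7.10 and 6.62 against 4.79, 4.93 and 4.81 (1.94 ± 0.12). SGPP2 read 6.34, 6.56 and 6.32 with PROG against 5.29, 5.36 and 4.97 with DEX (1.20 ± 0.11). Genes lower with PROG included EPGN, at 6.38, 6.28 and 6.42 against 7.25, 7.38 and 7.43 with DEX (-0.99 ± 0.11, limma adjusted p = 0.000150). PER1 read 7.30, 7.56 and 7.38 with PROG against 7.90, 8.16 and 8.09 with DEX (-0.64 ± 0.10). ANGPTL4, an inhibitor of lipoprotein lipase, read 5.39, 5.55 and 5.62 against 6.10, 6.39 and 6.36 (-0.76 ± 0.082), and it was not called for PROG against vehicle. PGR was lower with PROG than with DEX, at 7.78, 7.69 and 7.68 against 8.22, 8.06 and 8.02 (-0.38 ± 0.056), and lower than with DHT, at 8.0, 8.06 and 8.10 (-0.34 ± 0.056). The number of probe sets lower with PROG than with DEX was between 32 and 38 when any 1 array was left out.

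The 15 largest rises against vehicle can be read across these contrasts as a description, since the same PROG arrays chose them. Against DHT 13 of the 15 were higher with PROG and 2 lower, against DEX 14 were higher and 1 lower, and against MPA 0 were higher and 4 lower. The 2 genes lower with PROG than with DHT were C1orf116 and CLDN8, the gene lower than with DEX was PER1, and the 4 lower than with MPA were C1orf116, CLDN8, HSD11B2 and SGPP2. Several of these calls ended when 1 array was left out. Against MPA, HSD11B2 was called only without PROG 2, and SGPP2 lost its call without PROG 1, PROG 3, MPA 1 or MPA 3. Against DHT, PER1 was called only without DHT 3. Against DEX, FKBP5 was called in 0 of the 6 fits, C1orf116 lost its call without PROG 1, PROG 2, DEX 1 or DEX 2, and NDRG1 without PROG 1 or DEX 1. The other calls among the 15 were made in every fit.

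**Figure D5:**
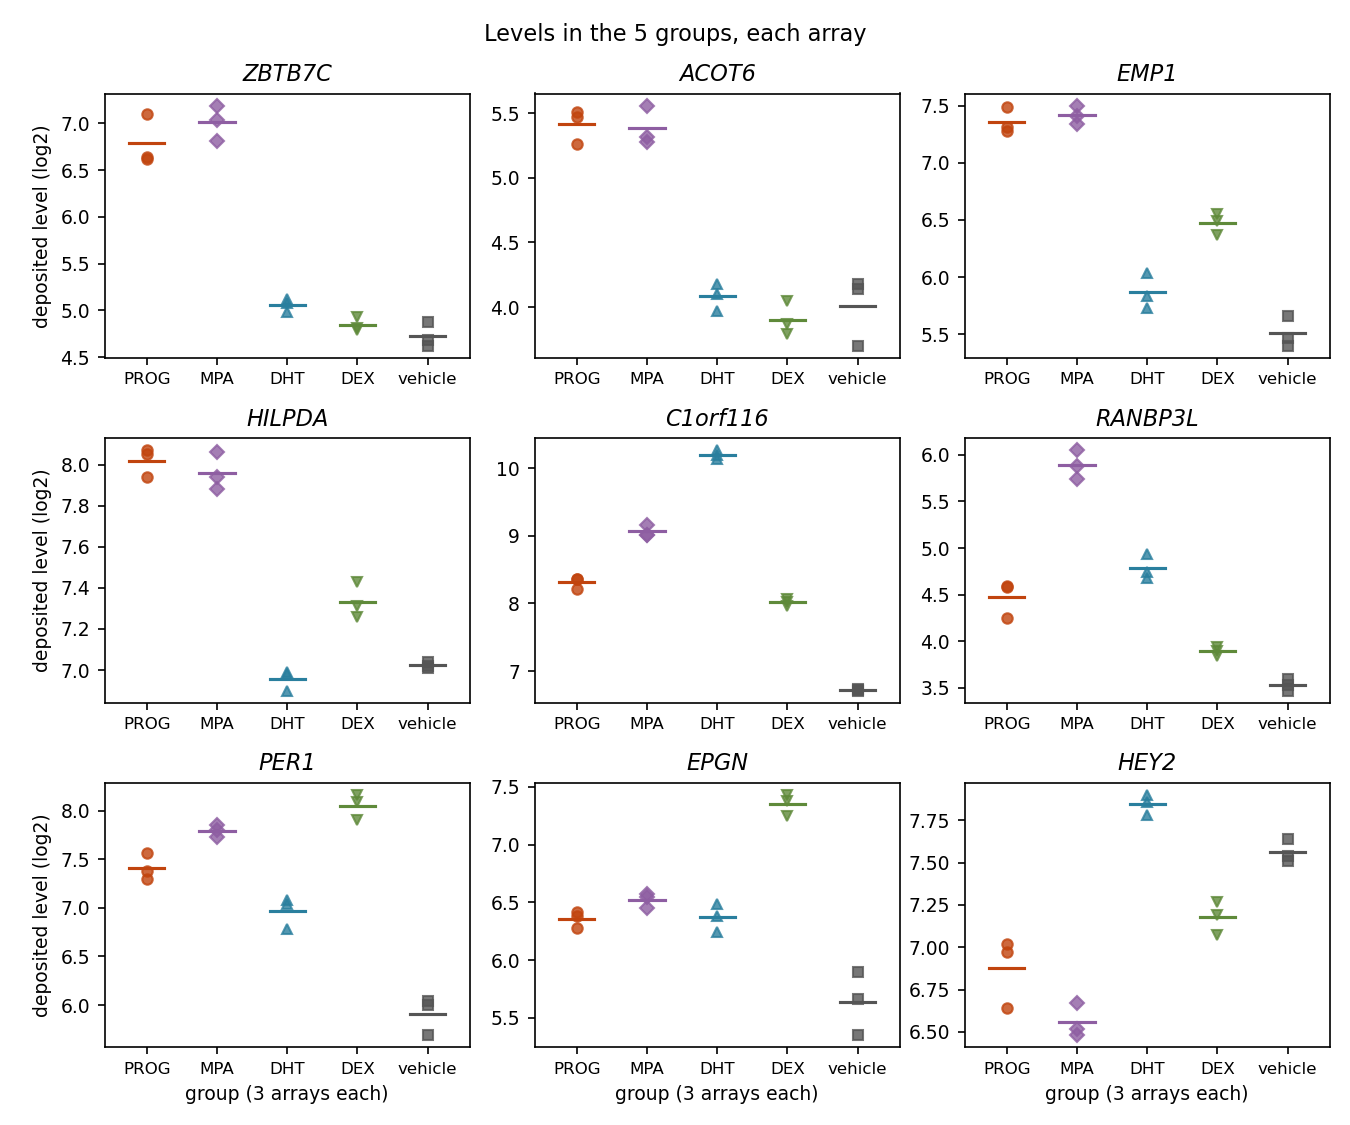
Deposited log2 level (vertical axis, a scale of its own for each gene) of 9 genes on each array of the PROG, MPA, DHT, DEX and vehicle groups, with group means as bars. ZBTB7C, ACOT6, EMP1 and HILPDA are highest with PROG and MPA, C1orf116 is highest with DHT, RANBP3L with MPA, PER1 and EPGN with DEX, and HEY2 is lowest with MPA and PROG.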

How the data were processed

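The values are log2 levels of 34878 probe sets, 1 column per array, as deposited, which the authors made with RMA in Partek, per the submitters' processing notes. The sources used here do not give versions, settings or the genome build. RMA brings arrays to a like distribution, so a change common to most genes would not be seen, and it can compress changes of dim probe sets. The platform annotation names 14841 probe sets with 1 gene symbol each, covering 14361 genes, 405 of them with more than 1 probe set, and 20037 have none here. Values were used as deposited. limma 3.58.1 in R 4.3.3 fitted 5 group means over 15 arrays (10 residual degrees of freedom, prior 3.81), with Benjamini-Hochberg adjustment within each contrast, 2-sided, at 0.05. The script was tested on simulated data.

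Genes named are the 15 largest called changes each way without overlap of arrays (1 probe set a gene, small RNAs and pseudogenes passed over), up to 5 called members of each of 33 lists, 20 single genes, and the 6 largest each way between compounds. The text gives part of them. The members and lists were chosen with earlier results of these data known, and lists are described by counts and medians only. Named after their values were seen are SCARNA7, RASA4, CEACAM5, the microRNA genes with VMP1 and MIR181A1HG, the genes given as examples without a call, and those of the closing section. Replicate numbers did not pair the arrays: same-numbered PROG and vehicle arrays had correlations of deviations of -0.049 to 0.011.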

Additional observations from a re-analysis of the deposited data

How the results depend on the processing

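The fit with only the arrays of the 2 groups compared gave fewer calls: 234 higher and 21 lower for PROG against vehicle, 121 and 25 against DHT, 99 and 23 against DEX, and 0 higher (542 at an unadjusted p under 0.05 with limma), 7 lower and 5 of at least 1.5-fold against MPA. With the replicate block, calls for PROG against vehicle were 330 higher, 51 lower and 84 of at least 1.5-fold. The block gave 5, 31 and 8 against MPA, 190, 44 and 49 against DHT, and 148, 46 and 45 against DEX. The numbers share no stated batch, and same-numbered PROG arrays and arrays of any group had correlations of deviations of -0.049 to 0.067. Probe sets higher with PROG than with MPA numbered 19 with an intensity trend and robust prior, 14 without dim probe sets, 3 in the fit of all probe sets and 29 with adjustment over the 4 contrasts together. Those lower numbered 53 with the trend and 68 with adjustment over the 4 contrasts, and those lower than with DEX 38 in the fit of all probe sets. Luminal markers called lower than with vehicle numbered 2 with the trend, array weights, quantile normalization or without dim probe sets. Luminal markers called higher than with vehicle numbered 0 in the fit with only the 2 groups. They numbered 1 with the replicate block, median centring, all probe sets or adjustment over the 4 contrasts. Counts of other lists moved too. With only the 2 groups, rises against vehicle numbered 2 for estrogen-induced and 3 for junction genes. They numbered 1 each for the apoptosis, G1 and S phase, Notch and metallothionein lists. Rises of MAP kinase feedback genes numbered 5 with the trend or without dim probe sets. The cause of these shifts was not tested, and some of the alternatives have fewer arrays or another number of probe sets or tests.

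Without any 1 array, the numbers higher, lower and of at least 1.5-fold were 227 to 298, 30 to 46 and 79 to 92 against vehicle. They were 1 to 9, 15 to 33 and 6 to 10 against MPA, 130 to 178, 29 to 78 and 43 to 66 against DHT, and 109 to 133, 32 to 38 and 42 to 46 against DEX. The 78 and 66 against DHT came without DHT 3. Against vehicle, signs were followed for the genes named from that contrast. Between compounds they were followed only for the 6 largest called differences each way and the single genes. Of the differences followed, the sign turned only for 2 that were not called, both against MPA. STAT5A ranged from -0.21 to 0.15 with an array left out (0.15 without PROG 1, 0.09 without MPA 1). CCND1 was at 0.0067 with median centring and ranged from -0.055 to 0.015 with an array left out (0.01 without PROG 1, 0.005 without PROG 3, 0.015 without MPA 1, 0.01 without MPA 3). Limits are that 3 arrays a group, 1 cell line, 1 dose and 1 time were measured, that separate cultures are not stated, and that dim probe sets hold a bound only.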

Other observations

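Several further rises, all named after their values were seen, concern signalling at the cell surface. F2R, a thrombin receptor, read 6.72, 6.67 and 6.53 with PROG against 5.48, 5.51 and 5.29 with vehicle (1.21 ± 0.083). LPAR3, a receptor for lysophosphatidic acid, rose by 0.65 ± 0.11, and ACKR3, a scavenging chemokine receptor, by 0.56 ± 0.096. KL, which encodes klotho, a co-receptor for FGF23, read 7.92, 8.0 and 7.85 against 7.15, 7.18 and 7.06 (0.79 ± 0.057). LRIG1, which promotes turnover of EGF receptor family proteins, rose by 0.63 ± 0.049. PCDH7, a protocadherin, rose by 1.07 ± 0.061, and its arrays did not overlap at 6.83, 6.91 and 6.95 with PROG against 5.87, 5.78 and 5.83 with vehicle.

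Inside the cell, an actin regulator and transcription factors were also higher with PROG. FHDC1, a formin-related actin regulator, rose by 1.07 ± 0.068. Of transcription factors, TFCP2L1 rose by 0.91 ± 0.064, MXD1, a MYC antagonist, by 0.73 ± 0.043, and ZNF703, a luminal factor, by 0.67 ± 0.055. GATA6 rose by 0.46 ± 0.068 and DLX2 by 0.55 ± 0.062. All were called in limma at an adjusted p under 0.05 and in every fit without an array.

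Calls were unevenly spread over kinds of RNA and levels. Of 12226 protein-coding probe sets 3.29% were called, against 0.293% of 1365 lncRNA and 0.82% of 732 microRNA gene probe sets, and 29.4%, 64.8% and 63.9% of these were dim in both groups. Of probe sets with a mean under the dim limit 0.338% were called, and of those with a mean of 8 or more 5.05%. In the fit of all probe sets, 210 of 20037 unnamed ones were higher and 42 lower with PROG.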
